A study of Mus musculus with 9 samples.

Results

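The genes described here are 37 transcripts of the liver's extracellular matrix and of hepatic stellate cells, among the 51912 genes listed for each liver. They were taken by gene symbol from a fixed list and comprised collagens, other matrix proteins, enzymes and inhibitors of matrix remodelling, growth factors and stellate cell markers. The rule that picks them reads only the gene symbol and no measured value, but the list was drawn up with earlier results of these data known. Livers came from mice that lack apoE and, in cells expressing Alb-Cre, the heparan sulfate enzyme NDST1 (Apoe-/-Ndst1 f/f Alb-Cre+). The mice had received an antisense oligonucleotide (ASO) against apoC-III, labelled ApoCIII_ASO (5 livers), or a control ASO, labelled Control_ASO (4 livers), at 50 mg/kg/week for 8 weeks, and were fasted. Both groups thus carried the same deletions, and there was no group without an ASO. Albumin-driven Cre deletes Ndst1 in hepatocytes, so the stellate cells of these mice keep the gene. Age, sex and diet were not given beside the RNA sequencing in the sources used here. Replicates were livers numbered within a group, and the labels do not say whether each came from a different mouse, so p-values measure the spread between these samples.

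Stellate cells lie between hepatocytes and the sinusoidal endothelium, store retinoid as retinyl esters and make much of the matrix of the space of Disse. When the liver is injured they lose their retinoid, become contractile and deposit fibrillar collagen under the influence of TGF-β and PDGF. In uninjured liver the matrix is sparse, with thin collagen fibrils, fibronectin, proteoglycans and a discontinuous layer of basement membrane proteins. Whole liver was sequenced, so fewer cells of a type and less RNA per cell cannot be told apart in any value below.

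Levels are given as normalised TPM, that is, transcripts per 1000000 among nuclear protein-coding genes, divided by 1 scaling factor per liver. TPM is per unit of transcript length, so levels of different genes can be set beside each other. A gene was called different at an adjusted p under 0.05 (limma, Benjamini-Hochberg over all genes tested) with a change over 1.5-fold. The targeted transcript, Apoc3, was at 3577 ± 493 (SD, n = 4) under the control ASO and at 450.3 ± 112 (SD, n = 5) under the apoC-III ASO, 87.4% lower, with no overlap (exact two-sided permutation p = 0.0159, the smallest that 5 against 4 livers allow).

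The fourth control liver stood apart from the other 8. Protein-coding transcripts made up 1.94% of its TPM, against 3.04% to 8.64% in the other 8 livers, and its scaling factor was 0.496, against 0.930 to 1.44. Summed erythroid markers were 2182 there, against 62.0 to 204.2 in the other controls and 49.8 to 948 in apoC-III ASO livers. On normalised TPM it held the highest value of 13 of the 33 matrix and stellate genes tested and the lowest of 5. Over all genes tested it held the highest value for 21.2% and the lowest for 21.9%. These ranks depend on the scaling. On TPM as deposited its Dcn was at 1.70, against 2.94 to 7.26 in the other 8 livers. Its Timp3 was at 1.27 there, inside the range of the others, 0.860 to 1.86. Values without this liver are given below for the set and for some of its genes. They are not given for the marker and pathway lists, where the part of this liver was not tested.

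Of the 37 genes, 33 reached a mean normalised TPM of 1 over the 9 livers and were tested among 11968 protein-coding genes. Acta2, Lox, Loxl1 and Timp1 did not reach it. None of the 33 was called, in a comparison that called 2 of 11968 genes (0.0167%). With DESeq2 on read counts, the paper reports more genes past the same thresholds. The lowest adjusted p of any of them was 0.842 (limma, Benjamini-Hochberg). At an unadjusted p under 0.05, 3 were lower in apoC-III ASO livers (9.09% of those tested), against 2.57% of all genes tested, and 0 were higher, against 3% of all genes. These 3 were Lrat, Dcn and Col5a2. The exact permutation test per gene put 4 genes under 0.05, all lower, adding Lum, beside 2.57% of all genes lower in that test. Only Lrat remained under 0.05 when the first, the second or the third apoC-III ASO liver was left out. Without scaling factors 0 genes were lower at this p, beside 0.340% of all genes, and 1, Sparc, was higher. In that limma fit 1328 of 12051 genes had an unadjusted p under 0.05 in either direction, with the median of all genes tested at 0.41.

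In direction, 13 of the 33 genes were higher and 20 lower (60.6%), against 50.1% of all genes lower. The median log2 fold change was −0.12, against −0.0013 over all genes tested. Without the fourth control liver, 17 of the 33 genes were lower and the median was −0.0311. On protein-coding TPM without scaling factors, 9 of the 33 were lower (27.3%), beside 12.0% of all genes, and on TPM as deposited 3 of the 9 genes that passed the filter were lower, beside 29.2% of all genes. None of those 9 was called, beside 11 of 4936 genes (0.223%). The comparison had limited precision for single genes. On the scale of the fit, the 95% interval lay within 2-fold in either direction for 22 of the 33. It reached past 2-fold lower for 8 and past 2-fold higher for 3. The fit adds a constant to every value before the logarithm, so these folds understate changes in normalised TPM of low genes. For such genes an interval within 2-fold does not exclude a larger change in normalised TPM.

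**Figure D1:**
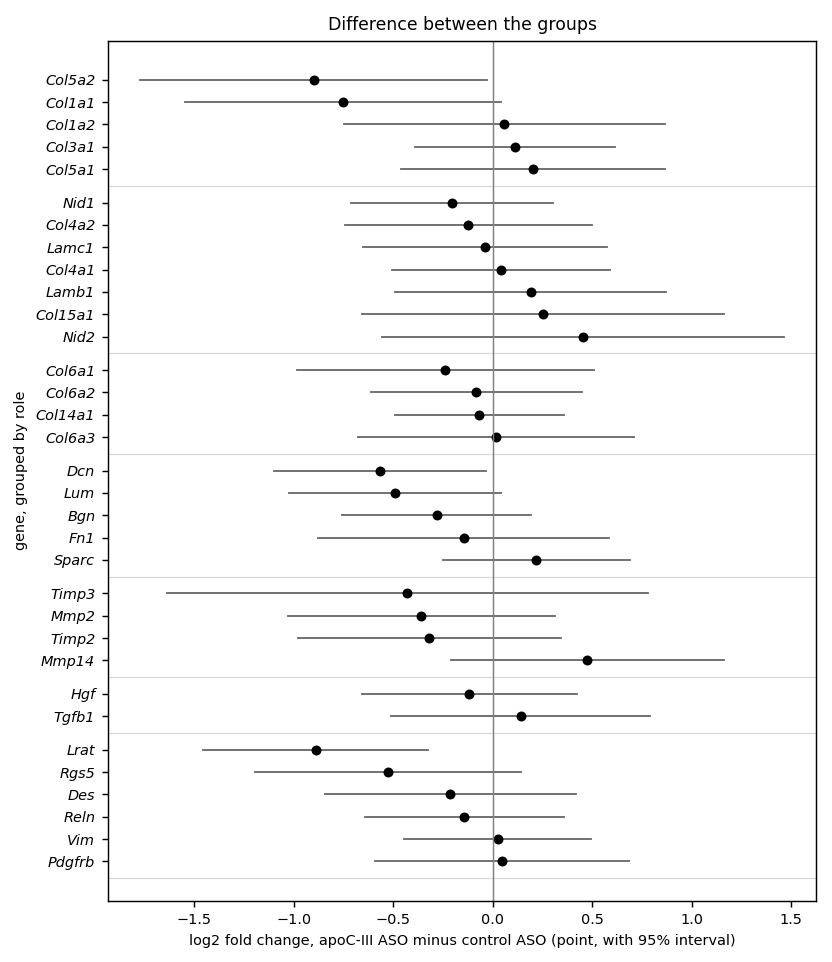
Log2 fold change of the 33 tested genes (horizontal axis, apoC-III ASO minus control ASO, n = 5 and 4) by role from top to bottom: fibrillar collagens, basement membrane, beaded and linker collagens, proteoglycans and glycoproteins, remodelling, growth factors, stellate and contractile genes. Points are limma estimates and lines their 95% intervals, of which 3 leave out 0, all on the lower side.

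The genes spanned a wide range of levels. Fn1, fibronectin, had a mean of 570.3 normalised TPM over the 9 livers, higher than 99.4% of protein-coding genes, and hepatocytes also make this protein and secrete it into plasma. Dcn followed at 96.7, Sparc at 68.8, Bgn at 37.3 and Timp3 at 34.6. Only 11 of the 37 genes averaged 10 or more. The 4 lowest genes were those not tested. Acta2, smooth muscle actin of activated stellate cells, averaged 0.670, and Timp1, an inhibitor of metalloproteinases, averaged 0.0842. Timp1 was listed at 0 in 8 livers and at 0.758 in the first apoC-III ASO liver. Lox and Loxl1, which cross-link collagen, averaged 0.209 and 0.115.

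**Figure D2:**
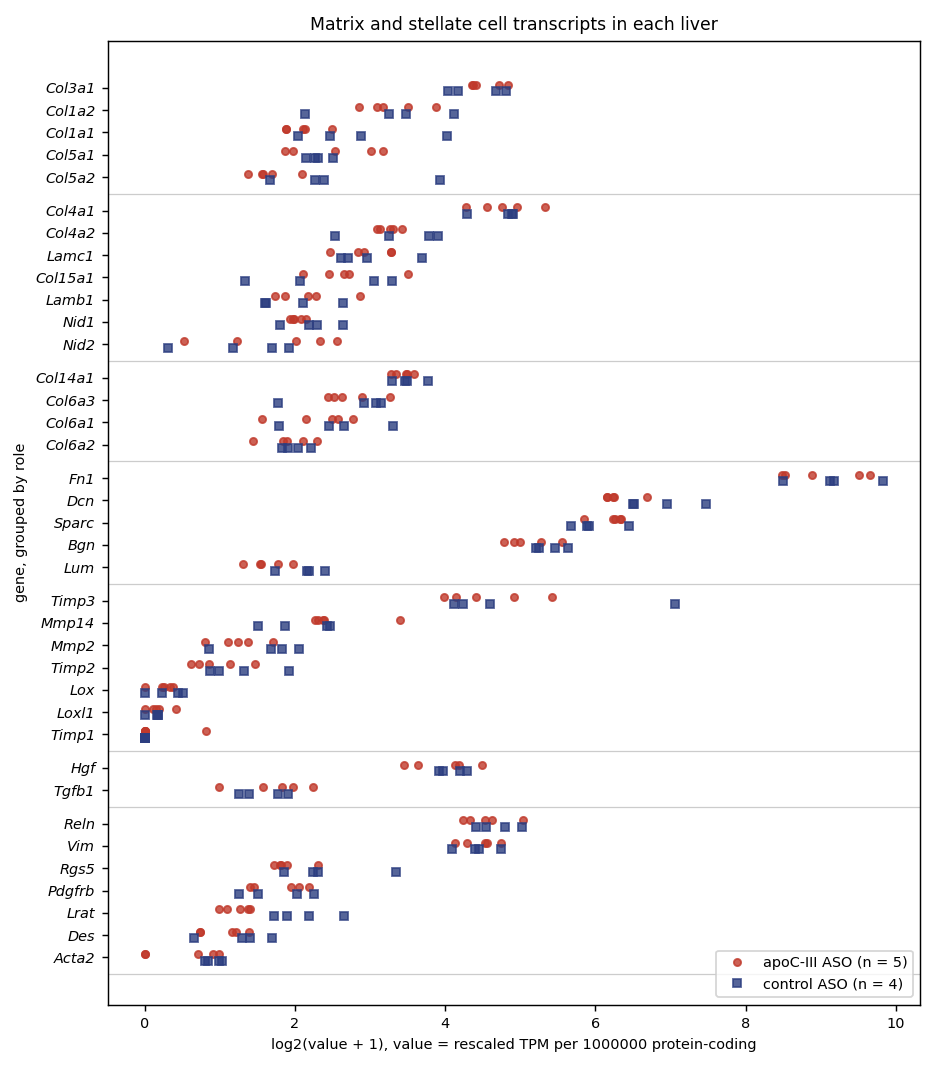
Level of all 37 genes in each liver as log2(normalised TPM + 1), with genes grouped by role and ordered by mean level within a role. Red circles are the 5 apoC-III ASO livers and blue squares the 4 control ASO livers. Lrat is the one tested gene whose groups do not overlap.

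Spread between livers also differed. Col14a1 varied least, with a coefficient of variation of 12.0% over the 9 livers and a highest value 1.45 times the lowest. Vim (16.9%), Sparc (18.6%) and Col3a1 (20.2%) came next. At the other end, Timp3 varied by 108% and Col5a2 by 101%, each through 1 high control liver, and Nid2 had a highest value 21 times its lowest.

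The stellate cell and contractile genes held the lowest unadjusted p. Of these 7 genes 6 were tested: 2 were higher, 4 were lower and none was called, with a median log2 fold change of −0.18. Lrat (chr3:82892579-82903973, GRCm38, minus strand) encodes lecithin retinol acyltransferase, which esterifies retinol for storage and is a defining enzyme of quiescent stellate cells. Lrat was at 1.14, 1.41, 0.977, 1.60 and 1.63 normalised TPM in the 5 apoC-III ASO livers and at 3.54, 2.72, 2.29 and 5.28 in the 4 control livers. Every apoC-III ASO liver lay below every control liver, a separation that no other of the 33 genes showed (3.03% of them) and that 0.911% of all genes tested showed in this direction. Its log2 fold change was −0.89 (SE 0.26, 95% interval −1.45 to −0.32), with an adjusted p of 0.842 in limma after Benjamini-Hochberg adjustment, so it was not called. Leaving out each liver in turn gave log2 fold changes from −1.02 to −0.73, and the unadjusted p stayed under 0.05 in all 9 of these limma fits. Lrat is singled out because its unadjusted p was the smallest of the 33, so its separation and these p-values partly follow from that choice. Without scaling factors the log2 fold change of Lrat was −0.56, with an unadjusted limma p of 0.0684. Lrat is a low transcript, ranked 28 of the 37 genes with a mean of 2.29 normalised TPM. On TPM as deposited it was at 0.0461 to 0.0930 in apoC-III ASO livers and at 0.0510 to 0.285 in controls. There the groups overlapped.

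Reln, the secreted glycoprotein reelin and a marker of stellate cells, was the highest of the stellate and contractile genes. Its normalised TPM was 23.6, 31.8, 22.1, 19.1 and 17.8 in apoC-III ASO livers and 20.2, 22.3, 26.8 and 31.4 in controls, and the groups overlapped over most of their range. The log2 fold change of Reln was −0.14 (SE 0.23). The sequences before the start of these genes are shown because one separated the groups and the other did not. They are the 250 bases upstream of the RefSeq start (GRCm38.p6), read 5′ to 3′ in the direction of the gene, at chr3:82903975-82904224 on the minus strand for Lrat and chr5:22344706-22344955 on the minus strand for Reln. Capitals mark CCAAT and GGGCGG on either strand.
Lrat: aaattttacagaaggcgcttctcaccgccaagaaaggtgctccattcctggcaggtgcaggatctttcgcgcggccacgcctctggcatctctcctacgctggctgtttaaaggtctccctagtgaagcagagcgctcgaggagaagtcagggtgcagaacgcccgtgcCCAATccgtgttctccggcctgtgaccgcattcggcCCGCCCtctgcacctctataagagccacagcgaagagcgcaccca
Reln: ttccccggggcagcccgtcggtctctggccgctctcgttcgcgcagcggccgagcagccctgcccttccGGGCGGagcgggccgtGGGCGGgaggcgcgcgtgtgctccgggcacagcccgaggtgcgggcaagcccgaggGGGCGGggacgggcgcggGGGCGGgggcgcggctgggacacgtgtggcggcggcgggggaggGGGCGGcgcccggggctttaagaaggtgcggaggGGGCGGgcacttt
The Lrat sequence held 1 CCAAT and, on the opposite strand, 1 GGGCGG. The Reln sequence held 6 GGGCGG and no CCAAT. Whether these motifs bear on the values of either gene was not tested.

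Rgs5, a regulator of G-protein signalling in pericytes and stellate cells, was at 2.48, 2.30, 2.52, 3.94 and 2.71 in apoC-III ASO livers and at 3.72, 2.60, 3.94 and 9.12 in controls. On this normalised scale the fourth control liver was the highest and the rest of the values overlapped. On TPM as deposited that liver was at 0.0879, inside the range of the others, 0.0783 to 0.299. The log2 fold change of Rgs5 was −0.53 (SE 0.31) and −0.23 without that liver. The intermediate filament genes Des (log2 fold change −0.21) and Vim (0.0254) and the PDGF receptor gene Pdgfrb (0.0470) had unadjusted p-values over 0.05. Acta2 ranged from 0 to 0.974 in apoC-III ASO livers, with 2 livers at 0, and from 0.735 to 1.04 in controls, below the level tested.

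Other stellate cell markers were read from a separate list of 19 genes, 15 of which were tested. Of these, 2 were higher, 13 were lower and none was called, with a median log2 fold change of −0.34. One had an unadjusted p under 0.05 in each direction: Steap4, a metalloreductase, at −0.55, and Lhx2, a stellate cell transcription factor, at 0.95, both named after their values were seen. Summed over the list, these markers ranged from 208.9 to 289.8 in apoC-III ASO livers and from 236.7 to 513.5 in controls, with the highest sum in the fourth control liver. Hepatocyte markers summed to 37288 to 75473 and 52637 to 60614, and 10 of 13 were lower, with a median of −0.24. Sinusoidal endothelial markers had a median of 0.0597 with 8 of 12 higher. Portal fibroblast markers, which share matrix genes with stellate cells, summed to 9.38 to 21.3 and 12.4 to 26.1, with 6 of 7 tested lower. The part of cell composition in the values of Lrat was not tested.

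**Figure D3:**
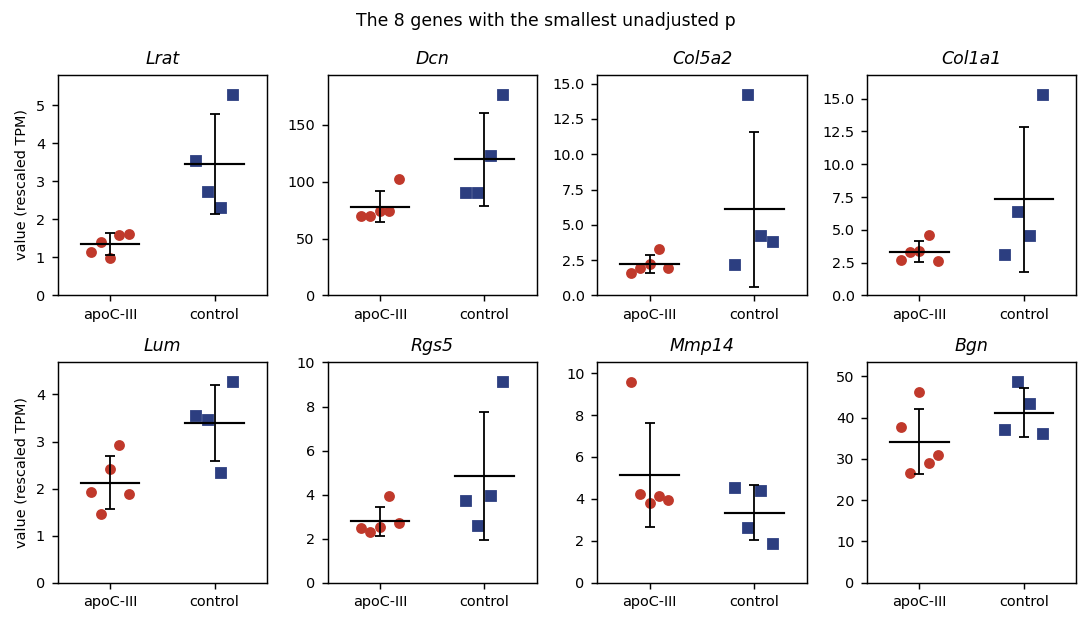
Normalised TPM in each liver for the 8 genes with the smallest unadjusted p (vertical axes start at 0). Points are livers, horizontal lines group means and error bars SD, n = 5 apoC-III ASO (red) and n = 4 control ASO (blue). Lrat does not overlap between groups, whereas Col5a2, Col1a1 and Rgs5 each have 1 control liver far above the rest.

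The small leucine-rich proteoglycans, which bind collagen fibrils and space them, were lower on average in apoC-III ASO livers without passing the test. Dcn, decorin, is at chr10:97479609-97518143. It was at 70.0, 70.2, 74.1, 74.7 and 102 normalised TPM in apoC-III ASO livers and at 90.3, 89.7, 123 and 176.6 in controls. Of the apoC-III ASO livers 4 lay below all controls, and the fifth lay above the 2 lowest controls. The log2 fold change of Dcn was −0.57 (SE 0.24, limma adjusted p = 0.876, Benjamini-Hochberg), and it was −0.36 without the fourth control liver. Under other scalings it was −0.0933 without scaling factors and −0.23 on TPM as deposited. Its unadjusted p rose over 0.05 when any of the first 4 apoC-III ASO livers, or the third control liver or the fourth control liver, was left out.

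Lum, lumican, on the same chromosome at chr10:97565128-97572703, was at 1.92, 1.47, 2.42, 2.93 and 1.89 in apoC-III ASO livers and at 3.54, 3.46, 2.33 and 4.27 in controls. The third control liver lay within the range of the apoC-III ASO livers, and the other 3 lay above it. Its log2 fold change was −0.49 (SE 0.24). Bgn, biglycan, was at 37.8, 26.6, 46.2, 29.1 and 31.0 in apoC-III ASO livers and at 37, 48.6, 43.2 and 35.9 in controls. These groups overlapped, and the log2 fold change was −0.28 (SE 0.22) and turned positive, at 0.18, without scaling factors.

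Fn1 and Sparc are abundant matrix glycoproteins. Fn1 was at 803, 470.4, 731, 367 and 357 normalised TPM in apoC-III ASO livers and at 577, 912, 556 and 359.7 in controls. The range of the controls held all but the lowest apoC-III ASO liver, and the log2 fold change was −0.15 (SE 0.33). That of Sparc, a collagen-binding protein that regulates matrix assembly, was 0.22 (SE 0.21), with 56.6 to 79.8 in apoC-III ASO livers and at 50.03 to 86.3 in controls. Of the 5 proteoglycans and glycoproteins, 1 was higher and 4 lower, with a median of −0.28.

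Fibrillar collagens, the chains of collagens I, III and V that form the tensile fibrils of the liver, split in direction. Of the 5 genes 3 were higher and 2 lower, with a median log2 fold change of 0.0590. Col3a1 was the highest of them, at 19.6, 27.6, 20.2, 25.2 and 19.5 in apoC-III ASO livers and 15.5, 24.5, 17.1 and 26.9 in controls. Its groups overlapped in part, with the controls at 15.5 and 17.1 below every apoC-III ASO liver. The log2 fold change of Col3a1 was 0.11 (SE 0.23, 95% interval −0.39 to 0.62). Col5a2, a chain of collagen V that sits at chr1:45374321-45503282, was at 1.59, 1.97, 2.24, 3.28 and 1.94 in apoC-III ASO livers and at 2.16, 14.2, 4.22 and 3.79 in controls. The second control liver was far above the others and the first lay among the apoC-III ASO livers. Its log2 fold change of −0.90 (SE 0.40, limma adjusted p = 0.876, Benjamini-Hochberg) became −0.44 without the second control liver.

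Collagen I is a trimer of 2 chains from Col1a1 and 1 from Col1a2. Col1a1 (chr11:94936224-94953042) was at 2.68, 3.31, 3.40, 4.63 and 2.66 in apoC-III ASO livers and at 3.11, 6.34, 4.5 and 15.3 in controls. On normalised TPM the fourth control liver was the highest of all, and without it the log2 fold change of −0.75 (SE 0.36) became −0.36. On TPM as deposited that liver was at 0.148, inside the range of the others, 0.0769 to 0.399. Col1a2 (chr6:4504814-4541544) was at 6.22, 8.03, 7.55, 13.7 and 10.3 in apoC-III ASO livers and at 8.49, 10.2, 3.38 and 16.3 in controls. The groups overlapped fully, with a log2 fold change of 0.0590 (SE 0.37).

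The ratio of Col1a1 to Col1a2 does not depend on the scaling of a liver. It was 0.43, 0.412, 0.450, 0.339 and 0.258 in apoC-III ASO livers and 0.367, 0.624, 1.33 and 0.941 in controls. Col1a1 was below Col1a2 in 8 of the 9 livers, and 3 of 4 controls lay above every apoC-III ASO liver. Collagen V showed a ratio of Col5a1 to Col5a2 from 0.805 to 4.05 in apoC-III ASO livers and from 0.241 to 1.82 in controls. Both ratios were looked at after the values were seen and were not tested.

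**Figure D4:**
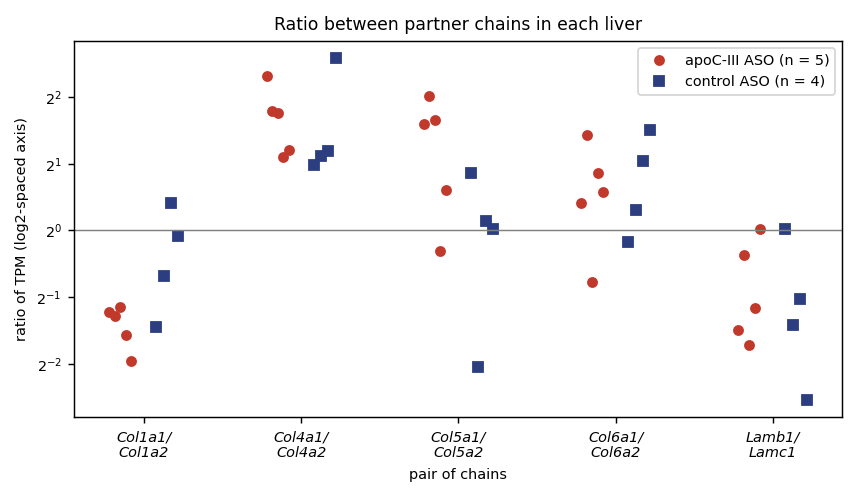
Ratio of TPM between partner chains of collagens I, IV, V and VI and of laminin in each liver (vertical axis spaced on a log2 scale, line at a ratio of 1). Col1a1 lies below Col1a2 in 8 of 9 livers, and Col4a1 above Col4a2 in all 9.

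The sequences before the RefSeq starts of 2 fibrillar collagen genes whose groups overlapped are shown beside that of Lrat. They are the 250 bases upstream of that start (GRCm38.p6, plus strand), at chr6:4505368-4505617 for Col1a2 and chr1:45311288-45311537 for Col3a1. The Col1a2 window lies inside the gene as placed above, because GENCODE starts that gene at 4504814, upstream of the RefSeq start. Capitals mark the CCAAT, the GGGCGG and the TATAAA motif on either strand.
Col1a2: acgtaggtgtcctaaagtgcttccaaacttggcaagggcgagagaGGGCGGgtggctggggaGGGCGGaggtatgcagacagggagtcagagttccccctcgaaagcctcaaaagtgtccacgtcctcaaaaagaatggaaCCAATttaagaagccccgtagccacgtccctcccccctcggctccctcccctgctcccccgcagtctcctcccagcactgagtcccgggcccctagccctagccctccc
Col3a1: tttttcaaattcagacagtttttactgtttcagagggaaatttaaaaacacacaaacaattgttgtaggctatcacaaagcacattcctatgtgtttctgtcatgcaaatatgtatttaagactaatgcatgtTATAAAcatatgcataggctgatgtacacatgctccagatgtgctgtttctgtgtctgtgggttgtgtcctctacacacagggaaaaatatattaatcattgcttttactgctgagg
Col1a2 held 1 CCAAT and 2 GGGCGG, and Col3a1 held 1 TATAAA. Over the set, RefSeq windows of 300 bases (250 before and 50 after the start) were found for 25 of the 37 genes, in 27 windows. GGGCGG was present in 63.0% of these windows, against 35.7% of all 32851 windows. CCAAT was present in 44.4%, against 37.4% of all. TATAAA was present in 7.41%, against 13.6%, and the AP-1 motif TGANTCA in 3.70%, against 7.81%. Both strands were searched, and no 2 matches overlapped in the sequences printed. A relation between motifs and differences between the groups was not tested.

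Basement membrane genes encode collagen IV, the laminin chains, the nidogens that link them, and collagen XV. All 7 were tested: 4 were higher and 3 lower, with a median log2 fold change of 0.0443 and none with an unadjusted p under 0.05. Col4a1 was the highest, at 39.0, 25.9, 30.1, 18.3 and 22.6 normalised TPM in apoC-III ASO livers and at 27.5, 18.6, 29.0 and 28.6 in controls. The controls lay inside the range of the apoC-III ASO livers, and the log2 fold change was 0.0443 (SE 0.25). Col4a2 was at 7.79, 7.50, 8.87, 8.58 and 9.75 in apoC-III ASO livers and at 14.0, 8.52, 12.7 and 4.76 in controls. Here the apoC-III ASO livers lay inside the range of the controls, with a log2 fold change of −0.12 (SE 0.28).

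Col4a1 exceeded Col4a2 in every liver, by 5.01, 3.46, 3.40, 2.14 and 2.32 times in apoC-III ASO livers and 1.97, 2.18, 2.28 and 6.02 times in controls. Collagen IV uses 2 chains of the first to 1 of the second. These genes lie head to head on chromosome 8, and their annotated starts are 21 bases apart, so that a stretch of 22 bases (chr8:11312805-11312826, plus strand, RefSeq GRCm38.p6) holds both starts. It is shown because both genes of the ratio start within it, and the capitals mark GGGCGG.
Col4a1 and Col4a2 starts: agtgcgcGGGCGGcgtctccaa
The fourth control liver had both the lowest Col4a2 and the highest ratio. Nid2, a nidogen, had the widest interval of the group, with a log2 fold change of 0.46 (95% interval −0.56 to 1.47). Col15a1 was at 0.25, Lamb1 at 0.19, Lamc1 at −0.0371 and Nid1 at −0.20.

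Beaded and linker collagens had log2 fold changes near 0, 1 higher and 3 lower, with a median of −0.0737. Col14a1, a collagen that decorates fibrils, was at 11.0, 10.3, 10.2, 8.70 and 9.19 in apoC-III ASO livers and at 12.6, 10.1, 8.79 and 10.2 in controls. The groups overlapped, and its log2 fold change of −0.0663 (SE 0.19) had a 95% interval from −0.49 to 0.36, the narrowest of the 33 genes. The chains of collagen VI, which forms beaded filaments around cells, were at −0.24 (Col6a1), −0.0811 (Col6a2) and 0.0167 (Col6a3). None of the 4 had an unadjusted p under 0.05.

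Of the 7 remodelling genes 4 were tested, with 1 higher, 3 lower and a median log2 fold change of −0.34. Timp3, a matrix-bound inhibitor of metalloproteinases, was the highest at 14.8, 16.6, 29.0, 20.3 and 41.7 in apoC-III ASO livers and at 23.1, 17.9, 16.3 and 132 in controls. The direction depended on the fourth control liver: the log2 fold change was −0.43 (SE 0.55) with it and 0.26 without it. With that liver kept, the direction also turned without scaling factors (0.0378) and with array weights (0.0198). Mmp14, a membrane-bound metalloproteinase that activates pro-MMP2, was at 9.58, 4.22, 3.79, 4.15 and 3.93 in apoC-III ASO livers and at 4.54, 2.63, 4.37 and 1.85 in controls. Its log2 fold change of 0.48 (SE 0.31) was the largest upward one of the set and became 0.26 without the first apoC-III ASO liver. Mmp2, a gelatinase, was at −0.36 and Timp2 at −0.32. Mmp2 had an unadjusted p under 0.05 in the fit without the fourth control liver.

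Of the growth factors, Hgf, the stellate cell product that acts on hepatocytes through the receptor MET, was at 17.1, 21.4, 9.96, 11.5 and 16.6 in apoC-III ASO livers and at 14.1, 17.4, 14.7 and 18.5 in controls. The controls lay inside the range of the other group, with a log2 fold change of −0.12 (SE 0.25). Tgfb1, the main fibrogenic cytokine, was at 0.974 to 3.74 in apoC-III ASO livers and at 1.39 to 2.76 in controls, with a log2 fold change of 0.14 (SE 0.30).

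**Figure D5:**
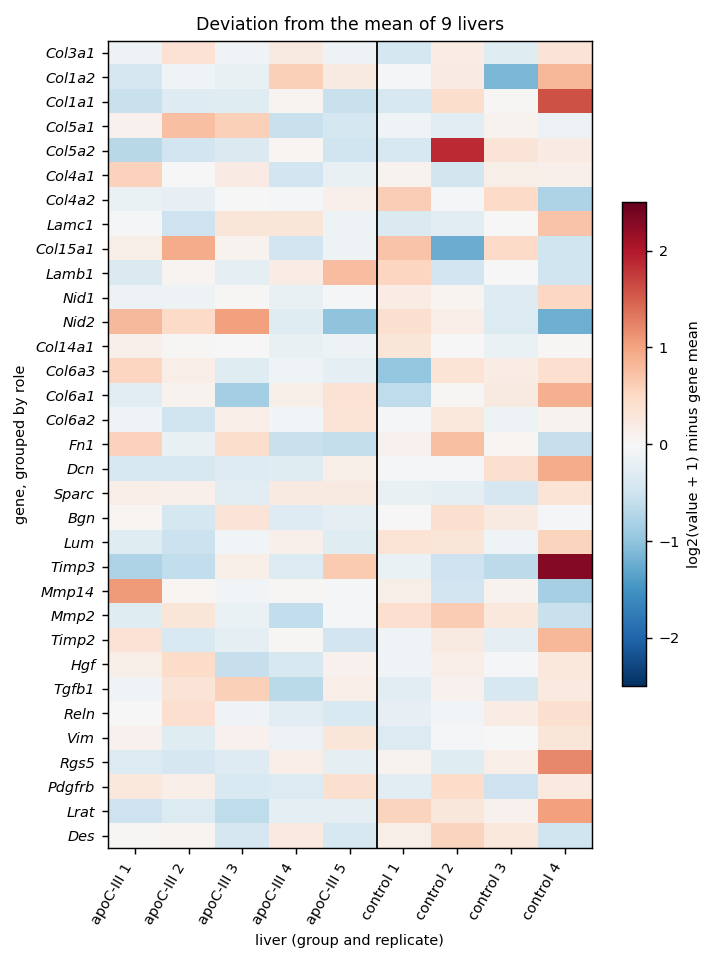
Deviation of each of the 33 tested genes from its mean over the 9 livers, as log2(normalised TPM + 1) (colour, red above and blue below the mean), with livers in columns and genes in rows by role. The fourth control liver has the strongest colours, with 13 of the 33 highest values and 5 of the lowest, and Lrat is below its mean in all 5 apoC-III ASO livers and above it in all 4 controls.

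Genes around the set were read from 6 lists of 174 genes, of which 123 were tested, 53 higher and 70 lower, with none called. At an unadjusted p under 0.05, 1 was higher and 7 were lower, beside 3% and 2.57% of all genes tested. The groups did not overlap for 1 higher and 2 lower genes, beside 0.919% and 0.911% of all genes tested. Genes named from these lists were picked by smallest unadjusted p, so their separation partly follows from that choice. The list of TGF-β and PDGF signalling genes had 8 higher and 17 lower of 25 tested, with a median log2 fold change of −0.12. Tgfbi, a matrix protein induced by TGF-β, was at 6.52 to 9.06 in apoC-III ASO livers and at 10.7 to 14.9 in controls, without overlap (log2 fold change −0.62, SE 0.20, limma adjusted p = 0.860, Benjamini-Hochberg). Ctgf, a matricellular protein and TGF-β target, was at 2.04 to 27.9 and 22.8 to 34.8. Only 1 apoC-III ASO liver reached the range of the controls, and the log2 fold change was −1.37 (SE 0.51).

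Collagen-making enzymes had 8 higher and 8 lower of 16 tested. P3h3, of the prolyl 3-hydroxylase family, was at 0.297 to 1.83 in apoC-III ASO livers and at 2.5 to 6.35 in controls, without overlap (log2 fold change −1.06, SE 0.31). Separation in this direction was seen in 0.911% of all genes tested. Serpinh1, the collagen chaperone HSP47, was at 10.5 to 15.9 and 4.37 to 17.0, with a log2 fold change of 0.67 (SE 0.32). Neither was called (limma, Benjamini-Hochberg adjusted p = 0.842 and 0.882).

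Other matrix proteins were lower in 24 of 33 tested, with a median of −0.21, beside 50.1% of all genes lower. At an unadjusted p under 0.05, 4 of the 33 were lower, beside 2.57% of all genes. Podn, the proteoglycan podocan, was at 1.77 to 6.14 in apoC-III ASO livers and at 5.69 to 11.5 in controls, with a log2 fold change of −1.0 (SE 0.30). That of Lamb3, a laminin chain of epithelia, was −1.39 (SE 0.53), with 1 control liver at 29.3 and the other 3 from 2.66 to 10.5. Matrix receptors had 12 higher and 5 lower of 17 tested. Itga10, a collagen-binding integrin, was at 6.48 to 9.02 in apoC-III ASO livers and at 4.01 to 5.55 in controls, without overlap (log2 fold change 0.48, SE 0.20, limma adjusted p = 0.876, Benjamini-Hochberg). This separation upward was seen in 0.919% of all genes tested. Itga5, part of the fibronectin receptor, had a log2 fold change of 0.55 (SE 0.41).

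Other remodelling genes had 11 higher and 9 lower of 20 tested. Mmp19, a metalloproteinase, was at 19.7 to 23.7 in apoC-III ASO livers and at 22.5 to 30.1 in controls (log2 fold change −0.34, SE 0.18), and Reck, a membrane inhibitor of metalloproteinases, had a log2 fold change of −0.42 (SE 0.37). Retinoid handling genes, the pathway in which Lrat acts, had 5 higher and 7 lower of 12 tested, with a median of −0.0327 and none at an unadjusted p under 0.05. Aldh1a1, a retinaldehyde dehydrogenase, was at 222 to 342 in apoC-III ASO livers and at 279.7 to 539 in controls, with a log2 fold change of −0.34 (SE 0.24).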

How the data were processed

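Whole-liver RNA of 9 samples was sequenced after ribosomal RNA depletion. Each deposited value is a gene's TPM, and the tool and build listed by the submitters are kallisto 0.43.1 and GRCm38. Whether the published test used the same quantification is not known. The authors' methods describe STAR, featureCounts and DESeq2, whose counts were not used here. TPM keeps no depth, so no counting error could be given, and the number of livers limits the precision. Identifiers were matched to GENCODE M21, giving 21857 nuclear protein-coding genes.

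TPM of those genes was rescaled to 1000000 per liver and divided by median-of-ratios factors (12263 genes above 0 in every liver), because non-coding and mitochondrial RNAs took most of the deposited TPM. Groups followed the labels. log2(value + 1) was compared with limma 3.58.1 in R 4.3.3 (lmFit, eBayes with trend, no covariates) for genes with a mean of at least 1 over the 9 livers, with Benjamini-Hochberg adjustment. The scripts were tested on simulated data. Exact permutation tests used scipy 1.17.1 and figures matplotlib 3.10.9. Fold changes are on the log2(value + 1) scale and understate changes of low genes.

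Members and lists were chosen with earlier results of these data known. Values in every liver are given for the highest gene of each role, the 8 genes with the smallest unadjusted p and both chains of collagens I and IV, and from each pathway list the 2 genes with the smallest p are named, except 1 gene that is not reported here. Alternatives covered scaling, pseudocount, filter, variance model, test, replicate block, thresholds and leaving out each liver. Hepatocyte gene Tf had no match by symbol. Promoter sequences are from RefSeq, GRCm38.p6.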

Additional observations from a re-analysis of the deposited data

Results flagged for a closer look

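In 78 groups of 4 or 5 livers, 8 held a value whose distance to the rest was large for the range of its group. The nominal rate of flags by chance is about 1 in 20 such groups. It was not checked on these values, and groups that share livers are not independent. Among proteoglycans and glycoproteins, Dcn was 102 normalised TPM in the fifth apoC-III ASO liver, against 70.0 to 74.7 in the other 4, and Sparc was 56.6 in the third, against 74.5 to 79.8.

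Among collagens, Col5a2 was 14.2 in the second control liver, against 2.16 to 4.22 in the other 3, and Col4a1 was 18.6 in the same liver, against 27.5 to 29.0. The ratio of Col4a1 to Col4a2 was 6.02 in the fourth control liver, against 1.97 to 2.28. Timp3 was 131.9 in that liver, against 16.3 to 23.1. Mmp14 was 9.58 in the first apoC-III ASO liver, against 3.79 to 4.22, and Rgs5 was 3.94 in the fourth apoC-III ASO liver, against 2.30 to 2.71. Their causes were not tested.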

How the results depend on the processing

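No matrix or stellate gene was called in any of 24 alternatives, whose lowest adjusted p for any of these genes was 0.451 (limma, Benjamini-Hochberg). The number called over all genes, 2 in the reported comparison, was 11 on TPM as deposited, 1 with eBayes without trend, 1 with no filter on low values, 1 without scaling factors, 0 with the exact permutation test per gene (621 at an unadjusted p under 0.05) and 1 to 3 when each liver was left out. The median log2 fold change of the set was 0.11 on TPM as deposited, where the median of all genes was also 0.11, and 0.33 without scaling factors, where that of all genes was 0.41. Leaving out each liver gave −0.16 to −0.0311. Apoc3 was at −2.62 on TPM as deposited (limma adjusted p = 0.104) and at −3.01 with the permutation test per gene (adjusted p = 0.867), both over 0.05, and in the other alternatives it stayed called.

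Direction under each alternative was followed for the 17 genes given liver by liver. Without scaling factors 9 of the 33 genes tested were lower in place of 20, and among those 17 the direction turned for Bgn (0.18), Col14a1 (0.36), Fn1 (0.33), Timp3 (0.0378), Hgf (0.33), Reln (0.32) and Col4a2 (0.28). It turned on TPM as deposited for Fn1 (0.14) and Reln (0.0590), with quantile normalization for Fn1 (0.0515) and with array weights for Timp3 (0.0198). Leaving out a liver turned Col3a1 (−0.0120 to 0.24), Col4a1 (−0.10 to 0.17), Col14a1 (−0.14 to 0.0236), Fn1 (−0.36 to 0.0799), Timp3 (−0.72 to 0.26), Hgf (−0.25 to 0.0106), Col1a2 (−0.31 to 0.36) and Col4a2 (−0.40 to 0.0597). Lrat, Dcn, Col5a2, Col1a1, Lum, Rgs5 and Mmp14 kept their direction in all alternatives in which they were tested, though the size changed, for Dcn from −0.69 to −0.0933 and for Lrat from −1.25 to −0.56.

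Deviations of same-numbered livers correlated at 0.0673, 0.119, 0.0280 and 0.190. Livers with different numbers were not compared in this way, so these values cannot decide whether the numbers pair the livers. With the replicate number as a block, in which the fifth apoC-III ASO liver had no partner, 3 genes were called, none of them in the set, whose median was −0.0625. In that limma fit 933 of all genes tested had an unadjusted p under 0.05, against 667 in the reported comparison. The cause of each change was not tested.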
